A study of Mus musculus with 16 samples.

Results

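Matrix metalloproteinases (MMPs) and their tissue inhibitors (TIMPs) were followed in the ageing mouse bladder through 10 genes, of which 7 encode proteases (Mmp2, Mmp3, Mmp9, Mmp10, Mmp12, Mmp13 and Mmp14) and 3 encode inhibitors (Timp1, Timp2 and Timp3). The members were the probes whose transcript accession maps to these symbols, 12 probes in all, with 2 each for Mmp12 and Timp2. The genes were chosen by their age changes in these arrays, AGED against MAT in each sex, and these changes are therefore given as a description. Where a member's age change is said to pass or miss a limit, no test is read from it. RNA of the bladder body from C57BL/6 mice was hybridised to Agilent SurePrint G3 mouse arrays, each array carrying 1 animal's RNA with a single dye. MAT mice were matured animals of 12 months and AGED mice were 27 to 30 months old, with 4 males and 4 females at each age. No mouse carried a transgene or received an agent according to the labels. The 8 male arrays lay on 1 slide and the 8 female arrays on another, so sex and slide cannot be told apart, and on each slide the MAT arrays filled the first row and the AGED arrays the second, so age and slide row cannot be told apart either.

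MMPs are zinc-dependent endopeptidases that cleave collagens, proteoglycans and other components of the extracellular matrix. Most are secreted as inactive proenzymes, which plasmin and other proteases activate, and TIMPs bind the active enzymes and block them. In the bladder wall these enzymes act on the collagen-rich lamina propria and on the matrix between detrusor muscle bundles, and fibroblasts, macrophages and neutrophils are known sources of several of them.

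In RefSeq's gene order Mmp3, Mmp10, Mmp12 and Mmp13 lie in a run of 10 neighbouring protein-coding MMP genes on chromosome 9, in the order Mmp13, Mmp12, Mmp1b, Mmp3, Mmp1a, Mmp10, Mmp8, Mmp27, Mmp20 and Mmp7. The other members lie apart from it, Mmp2 on chromosome 8, Mmp9 on chromosome 2, Mmp14 on chromosome 14, Timp1 on chromosome X, Timp2 on chromosome 11 and Timp3 on chromosome 10. Promoter sequence from RefSeq (GRCm38.p6) was at hand for 8 of the 10 members. It is shown for 5 genes of the run, because Mmp3 carried the changes described below while its neighbours were measured at low signal. Each line gives the 130 bases before the annotated start of transcription, 5′ to 3′, with the AP-1 motif TGANTCA and the TATA motif TATANA in capitals.
Mmp3, chr9:7445692-7445821, plus strand: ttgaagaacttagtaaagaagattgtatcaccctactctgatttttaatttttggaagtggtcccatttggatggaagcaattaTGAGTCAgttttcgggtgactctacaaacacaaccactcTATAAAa
Mmp10, chr9:7502212-7502341, plus strand: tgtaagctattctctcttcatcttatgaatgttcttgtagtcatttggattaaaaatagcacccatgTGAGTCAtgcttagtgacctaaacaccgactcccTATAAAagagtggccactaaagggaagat
Mmp13, chr9:7272384-7272513, plus strand: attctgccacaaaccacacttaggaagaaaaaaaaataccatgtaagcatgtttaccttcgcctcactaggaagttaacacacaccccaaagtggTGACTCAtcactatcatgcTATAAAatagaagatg
Mmp7, chr9:7691960-7692089, plus strand: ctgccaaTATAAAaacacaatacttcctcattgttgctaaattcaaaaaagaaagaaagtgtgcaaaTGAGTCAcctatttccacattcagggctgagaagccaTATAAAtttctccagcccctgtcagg
Mmp12, chr9:7347244-7347373, plus strand: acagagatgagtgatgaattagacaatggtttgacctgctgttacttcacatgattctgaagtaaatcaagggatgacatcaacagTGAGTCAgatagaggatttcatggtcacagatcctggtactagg
The AP-1 motif reads the same on both strands, and the TATA motif was sought on the gene's strand. In Mmp3 the AP-1 motif began at position -46 from the start and the TATA motif at position -7, and in Mmp10 they began at -63 and -29. Mmp13 had them at -35 and -16, and Mmp7, a family gene at the end of the run, at -63 and -26 before the first of its annotated starts, whereas the window before its second start (chr9:7692211-7692340) held neither. For Mmp12 an AP-1 motif at -44 was found before the second of its annotated starts, whereas the window before its first start (chr9:7344267-7344396) held neither motif. Over the 250 bases before the start, 7 of the 10 genes of the run held both motifs in at least 1 window, against 1.55% of all 32851 promoter windows of that length (6.75% held the AP-1 motif and 16.4% the TATA motif). Of the 12 family genes elsewhere in the genome that had a window, none held the AP-1 motif and 1 held the TATA motif. No window was at hand for Mmp2, Mmp9, Mmp16, Mmp17 and Mmp19, so nothing can be said of these genes. These matches describe the letters of the windows and nothing about binding in the bladder.

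Across the 16 arrays 52.3% to 68.2% of the probes were well above background, and no spot was saturated. Signals are given as log2 of the processed signal minus the 75th percentile of the array, so 0 stands for the percentile itself. This percentile lay between 9.18 and 10.8 on the log2 scale, lowest on the array of AGED male 1. Markers of smooth muscle (8 of 8), urothelium (10 of 10) and fibroblasts (10 of 10) were well above background on all 16 arrays, whereas none of 7 markers of the male accessory glands was so on all arrays and 3 were so on none. Levels of different probes are not set against each other, because probes differ in brightness.

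Of the 10 members, 8 had a probe well above background on at least 4 arrays and were fitted among 26781 genes. Mmp12 and Mmp13 did not reach this limit. A gene was called at an adjusted p under 0.05 and a change of at least 2-fold. With age 0.851% of all genes fitted passed these limits in males (0.276% higher in AGED males) and 0.19% in females (0.179% higher in AGED females), and Mmp3 was the 1 member of 8 among them in each sex. For the difference between the sexes' age changes 0.149% of all genes and 0 of 8 members passed. The same changes guided the choice of the members, so nothing is read from their counts. In males the split by direction depended on the processing, since 74 of 228 called genes were higher in AGED males as reported, 399 of 555 with no filter on dim probes and 64 of 759 with normexp background correction, an alternative described below.

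Mmp3 (stromelysin-1, which degrades proteoglycans, laminin and fibronectin and activates other proMMPs) was the member with the widest range. On its probe A_51_P255699 the 4 MAT males read -2.80, -2.02, -2.72 and -2.89, and the 4 AGED males read 0.20, -0.68, -0.92 and 0.85. The MAT females read -0.62, -0.73, -0.91 and -0.64, and the AGED females 1.10, 1.34, 1.09 and 1.17. In both sexes every AGED array was above every MAT array, and the AGED males were the most scattered group. The group means were ordered from MAT males (-2.61 ± 0.40, SD, n = 4) through MAT females (-0.72 ± 0.13) and AGED males (-0.14 ± 0.82) to AGED females (1.18 ± 0.12), and of the neighbours in this order MAT females and AGED males overlapped. On this scaled signal the MAT females lay within the range of the AGED males, but these 2 groups differ in slide and in slide row. They also differ in the correction at the spot, which is given below.

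The age change of Mmp3 was 2.47 on the log2 scale in males (SE 0.31, 5.55-fold), which placed it at rank 55 among all genes that were higher in AGED males. In females it was 1.90 (SE 0.31, 3.73-fold), at rank 73 among the genes higher in AGED females. The direction is that of the labels deposited with each array, and it is opposite to the one under which the study lists Mmp3. The difference between both changes, males minus females, was 0.57 (SE 0.43). These SEs rest on 1 spread per gene shared by the 4 groups. With each sex fitted alone, the SE of the male change was 0.39. In RNA of the whole tissue of the bladder body, more cells of a type and more transcript per cell cannot be told apart.

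**Figure D1:**
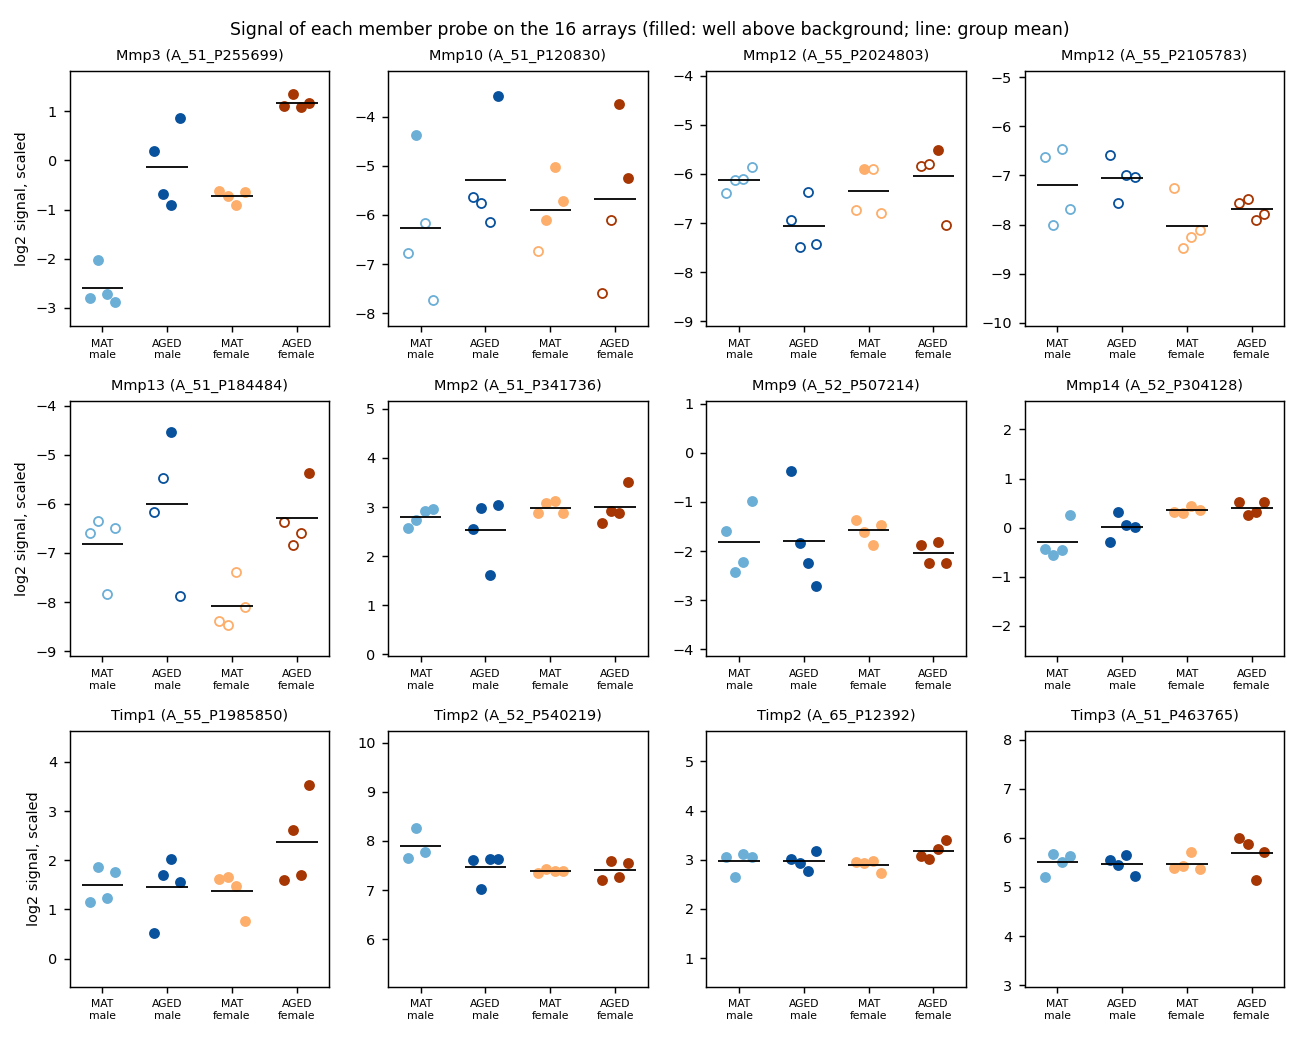
Scaled log2 signal (y axis, the same span in each panel) of the 12 member probes on each array of the 4 groups. Filled points were well above background, open points were not, and lines are group means. Mmp3 steps up from MAT to AGED in both sexes, while Mmp12 and Mmp13 are mostly open points.

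The values of the Mmp3 spot were also followed from the raw to the processed signal. The raw median signals of the Mmp3 spot were 204.5, 233, 212 and 174 in the MAT males and 691, 416.5, 282.5 and 1441.5 in the AGED males. They were 809, 723, 701.5 and 833 in the MAT females and 2371.5, 2677, 3674.5 and 1914 in the AGED females. The groups of each sex did not overlap in these raw signals either. Feature Extraction's within-array correction, expressed as log2 of the processed signal over the background-subtracted raw signal and relative to the median of the array, averaged 0.72 at this spot in AGED males (0.24 to 1.21), against 0.01 in MAT males, 0.19 in AGED females and 0.03 in MAT females. Over the probes well above background on all 16 arrays, the SD of this correction was 0.46 to 0.53 on the 4 AGED male arrays. On the other arrays it was 0.17 to 0.39. With normexp background correction of the raw medians, which leaves this correction out but also models the background in another way and adds an offset of 50, the age change of Mmp3 was 1.73 in males and 1.71 in females. The part of each of these steps in the shift was not tested.

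**Figure D2:**
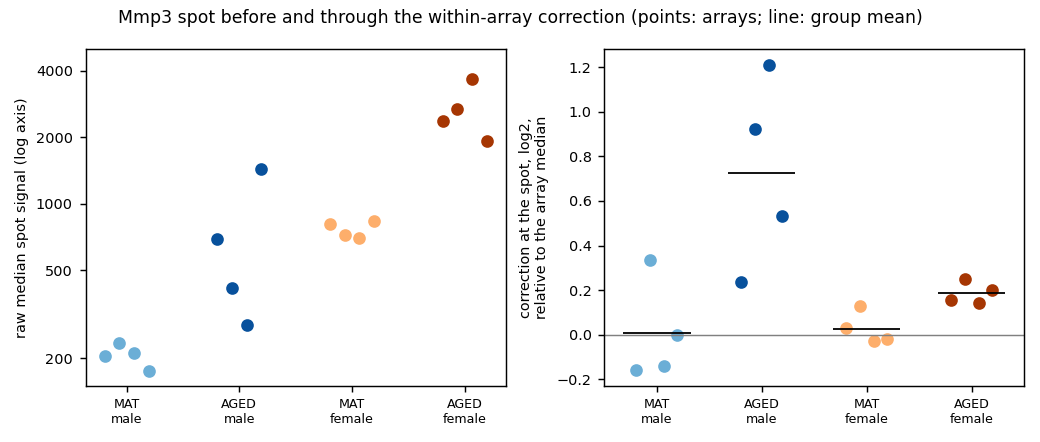
Left, raw median signal of the Mmp3 spot on each array (log axis). Right, the within-array correction at that spot in log2 relative to the array's median, with group means as lines. The raw signals of AGED arrays lie above those of MAT arrays in both sexes, and the correction is largest on the AGED male arrays, up to 1.21.

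The other stromelysin, Mmp10, which shares much of the substrate range of Mmp3, was near the detection limit. It was well above background on 1 of 4 MAT male, 1 of 4 AGED male, 3 of 4 MAT female and 2 of 4 AGED female arrays. Its signals were -6.77, -4.37, -6.15 and -7.74 in MAT males, -5.64, -5.75, -6.14 and -3.59 in AGED males, -6.73, -6.11, -5.02 and -5.71 in MAT females and -7.59, -6.10, -3.75 and -5.25 in AGED females. All 4 groups overlapped. The age change was 0.98 (SE 0.81) in males and 0.22 (SE 0.81) in females, both with errors near or above their own size.

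Mmp12 (macrophage metalloelastase, which degrades elastin) and Mmp13 (collagenase-3, a main fibrillar collagenase of the mouse) had no level that could be compared. For Mmp12, probe A_55_P2024803 was well above background on 2 of 16 arrays, 1 MAT female and 1 AGED female, and probe A_55_P2105783 on 0 of 16. The Mmp13 probe was well above background on 2 arrays, 1 AGED male and 1 AGED female. Signals of Mmp13 ran from -8.47 to -7.39 in MAT females and from -6.84 to -5.38 in AGED females, groups that did not overlap, but no MAT female and 1 AGED female array was measured above background. In males they ran from -7.84 to -6.35 at 12 months and from -7.88 to -4.54 in AGED mice and overlapped.

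The gelatinases Mmp2 and Mmp9, which cleave denatured collagen and basement membrane collagen, were well above background on all 16 arrays. Mmp2, a product mainly of fibroblasts and other mesenchymal cells, read 2.57, 2.74, 2.92 and 2.96 in MAT males and 2.55, 2.97, 1.61 and 3.03 in AGED males. In females it read 2.88, 3.08, 3.13 and 2.88 at 12 months and 2.67, 2.91, 2.87 and 3.51 in AGED mice. Its age change was -0.26 (SE 0.26) in males and 0.00 (SE 0.26) in females, and the groups overlapped in both sexes. AGED male 3 had the lowest value of all 16 arrays.

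Mmp9, which neutrophils and macrophages release, read -1.60, -2.42, -2.22 and -0.99 in MAT males and -0.37, -1.83, -2.24 and -2.72 in AGED males. Its signals were -1.37, -1.61, -1.88 and -1.47 in MAT females and -1.87, -2.25, -1.82 and -2.24 in AGED females. The age change was 0.02 (SE 0.40) in males and -0.46 (SE 0.40) in females. AGED males were the widest group, spanning from the highest to the lowest of all Mmp9 signals.

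Mmp14 (MT1-MMP, a membrane-bound protease that activates proMMP2 at the cell surface) had the smallest standard errors of the fitted proteases. It read -0.43, -0.56, -0.45 and 0.27 in MAT males, -0.28, 0.32, 0.05 and 0.01 in AGED males, 0.33, 0.30, 0.44 and 0.36 in MAT females and 0.52, 0.25, 0.32 and 0.52 in AGED females. The age change was 0.31 (SE 0.17) in males and 0.05 (SE 0.17) in females, with overlapping groups.

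Of the inhibitors, Timp1, the TIMP that cytokines and wounding are known to induce, had the largest standard errors. It read 1.15, 1.86, 1.23 and 1.76 in MAT males and 0.52, 1.71, 2.03 and 1.56 in AGED males. In females it read 1.62, 1.65, 1.47 and 0.76 at 12 months and 1.61, 2.61, 1.71 and 3.54 in AGED mice. AGED females 2 and 4 were above every other array and the remaining pair lay at or near the MAT female range. The age change was 0.99 in females (SE 0.41, 1.99-fold), and in males it was -0.04 (SE 0.41). With 1 array left out the female change ran from 0.60, without AGED female 4, to 1.24, without AGED female 1. The difference between both changes, males minus females, was -1.03 (SE 0.57).

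Timp2, which inhibits MMPs and also takes part in activating proMMP2 together with MT1-MMP, had 2 probes that did not move alike in males. On the brighter one, A_52_P540219, MAT males read 7.65, 8.26 and 7.78, the fourth spot having been dropped for an outlier flag, and AGED males read 7.61, 7.02, 7.64 and 7.63, a change of -0.42 (SE 0.18, n = 3 against 4) with groups that did not overlap. On the other probe, A_65_P12392, MAT males read 3.05, 2.64, 3.11 and 3.06 and AGED males 3.01, 2.93, 2.78 and 3.17, a change of 0.01 (SE 0.14). In females the changes were 0.01 (SE 0.17) and 0.28 (SE 0.14). The within-array correction at the brighter probe averaged 1.13 in AGED males and 0.53 in MAT males, against 0.18 in AGED and 0.11 in MAT females, and its male age change was -0.87 under normexp background correction and -0.17 as the mean of both probes.

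Timp3, the TIMP that binds to the matrix and also inhibits ADAM and ADAMTS proteases, read between 5.15 and 6.00 on all 16 arrays. The groups ran from 5.21 to 5.68 in MAT males, 5.22 to 5.66 in AGED males, 5.37 to 5.71 in MAT females and 5.15 to 6.00 in AGED females. Its age change was -0.04 (SE 0.18) in males and 0.21 (SE 0.18) in females.

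Over the 8 fitted members the median age change was -0.01 in males and 0.13 in females, beside 0.00 and -0.01 over all genes, and 4 and 7 of the 8 had a positive sign. Groups of males did not overlap for 2 members, Mmp3 and Timp2, beside 7.82% of all genes, and groups of females for Mmp3 alone, beside 10.8%. These counts too describe the values that chose the members.

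**Figure D3:**
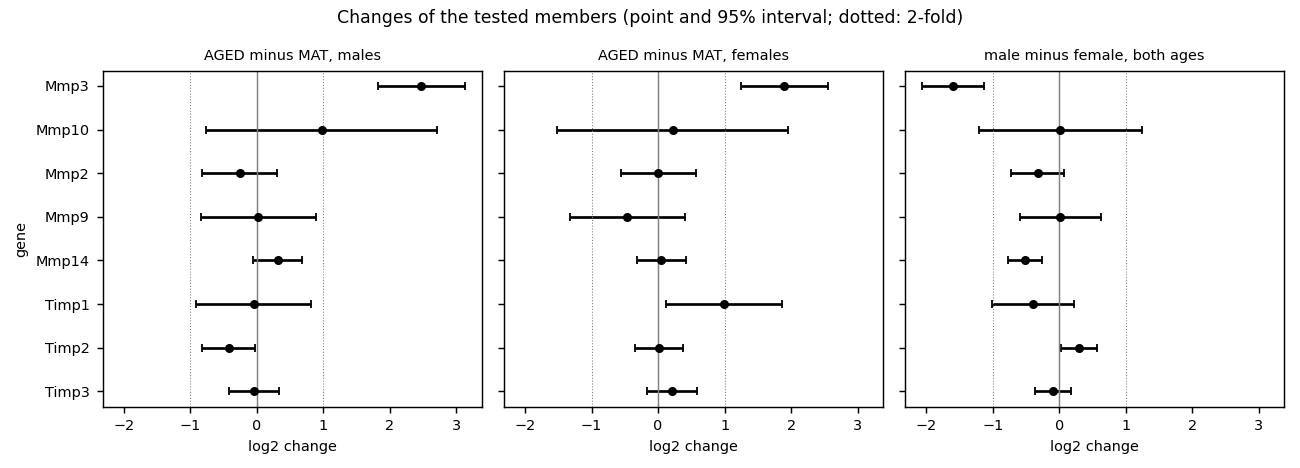
Log2 change (x axis) of the 8 fitted members with 95% intervals for AGED minus MAT in males, in females, and for males minus females over both ages. Dotted lines mark 2-fold. Mmp3 is beyond 2-fold in all 3 panels, and the intervals of Mmp10 are the widest.

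Males and females were then compared, a contrast that the choice of members did not use. The mean of both male groups was set against the mean of both female groups, so that both ages weigh equally. This contrast is independent of the age changes only where groups have equal size and spread. For Mmp3 the SD was 0.82 in AGED and 0.40 in MAT males, and Timp2 had n = 3 in MAT males. For these genes the independence is therefore not complete. Mmp3 was lower in males by 1.60 on the log2 scale (change -1.60, SE 0.22, 3.03-fold, limma adjusted p = 0.00127). It was the 1 member of 8 called, beside 1.78% of all genes (1.2% lower in males). At 12 months the difference was -1.88 (SE 0.31, 3.69-fold) and in AGED mice -1.31 (SE 0.31, 2.48-fold). Mmp3 was called in both, beside 0.164% of all genes at 12 months (0.0635% lower in males) and 3.11% in AGED mice (1.88% lower in males). Differences within an age share group means with the age changes, which chose the members. They are therefore given as a description, here and below, and nothing is read from these calls. No male array reached a female array of its own age, since the highest MAT male read -2.02 against -0.91 for the lowest MAT female, and the highest AGED male 0.85 against 1.09 for the lowest AGED female. The call at 12 months was lost when any of the 4 MAT female arrays or MAT male 1 or 3 was left out, with a difference between -1.94 and -1.82.

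Mmp14 was also lower in males, by a change of -0.51 (SE 0.12, 1.43-fold, limma adjusted p = 0.0160), which is under 2-fold. With Mmp3 it made 2 members of 8 past the adjusted p alone, beside 12.3% of all genes. At 12 months males and females did not overlap for 3 of 8 members, Mmp3, Mmp14 and Timp2, beside 18.4% of all genes, and in AGED mice for Mmp3 alone, beside 13.7%. The remaining 6 members did not pass. Their differences, males minus females, were -0.32 (95% interval -0.72 to 0.08) for Mmp2, 0.01 (-0.60 to 0.63) for Mmp9, 0.02 (-1.21 to 1.24) for Mmp10, -0.39 (-1.004 to 0.22) for Timp1, 0.29 (0.02 to 0.56) for Timp2 and -0.09 (-0.36 to 0.17) for Timp3. For Timp2 the brighter probe reads 0.29 and the other probe -0.07, so its sign depends on the probe.

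**Figure D4:**
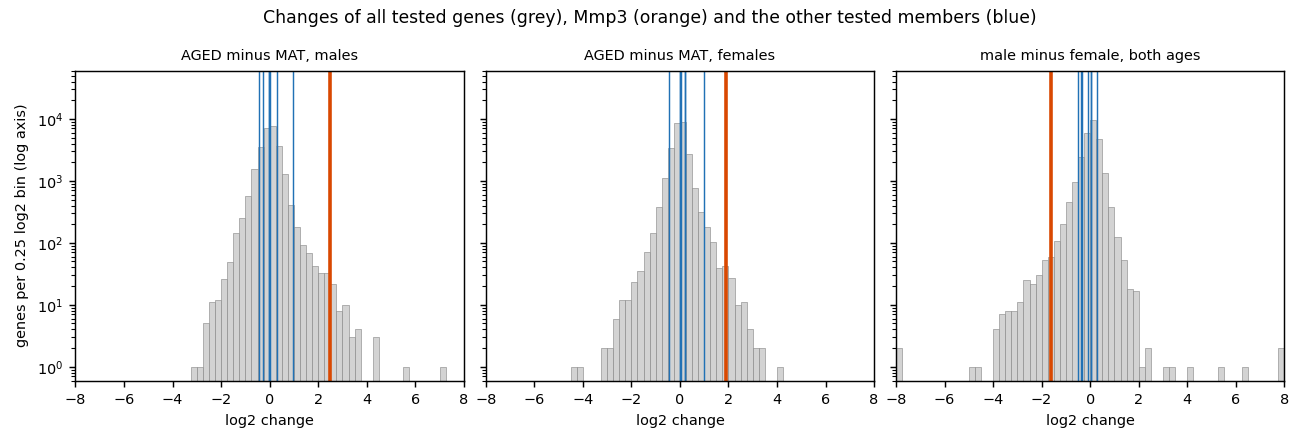
Number of genes (log axis) in bins of 0.25 log2 units of change for all 26781 genes fitted, for age in males, age in females and males minus females. The end bins of the last panel also hold larger changes. Orange lines mark Mmp3 (2.47, 1.90 and -1.60) and blue lines the other 7 members, which lie within 1 log2 unit of 0 in each panel.

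Markers of cell types were followed along the same contrasts, and their part in the values of Mmp3 and its family was not tested. The neutrophil genes S100a8 and S100a9, subunits of calprotectin, were higher in AGED males by 2.43 (limma adjusted p = 0.0210) and 3.08 (limma adjusted p = 0.0126), for S100a9 again opposite to the direction of the study's list. The marker lists were chosen with earlier results of these data known, so these age p-values are given as a description. The call of S100a8 was lost without MAT male 3 (limma adjusted p = 0.0742) or MAT male 4 (limma adjusted p = 0.0505). Both calls were lost with each sex fitted alone. Of the 8 neutrophil markers fitted these 2 were called, 4 of the 8 had a positive age change in males, and the mean log2 level of the list ran from -1.99 to -1.34 in MAT males, -1.43 to -0.48 in AGED males, -2.01 to -1.62 in MAT females and -1.48 to -0.91 in AGED females. The summed linear signal of that list, in multiples of the 75th percentile, was 95.8 to 105 in MAT and 93.6 to 118 in AGED males and 82.9 to 90.3 in MAT and 74.2 to 108 in AGED females. The 9 macrophage markers had a median age change of 0.38 in males and 0.42 in females, with none called, and their summed signal was 87.6 to 108 in MAT males, 98.5 to 198 in AGED males, 84.1 to 95.9 in MAT females and 77.5 to 136 in AGED females. All 9 were well above background on every array. No fibroblast marker of 10 was called with age, and their median change was -0.26 in males and -0.06 in females. The median of 10 lymphocyte markers changed by 0.47 in males and by -0.21 in females with age, with none called. Smooth muscle markers had a median age change of 0.03 in males and -0.01 in females, and urothelium markers 0.10 and 0.17. For endothelium it was -0.12 and -0.11 and for adipocytes -0.45 and -1.16, and none of these markers was called with age.

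Markers of adipocytes, lymphocytes, fibroblasts and neutrophils were also set against sex over both ages. Of 6 adipocyte markers 5 were called lower in males, beside 1.2% of all genes, and the remaining marker had a positive difference. The median difference was -3.18. None of these markers was called within either age. Adipoq, which encodes adiponectin, differed by -3.89 (limma adjusted p = 0.0220), Retn, which encodes resistin, by -3.55 (limma adjusted p = 0.00727), and the lipid droplet genes Cidec and Plin1 by -3.49 and -2.86. The B cell gene Ms4a1 was lower in males by a change of -2.96 (limma adjusted p = 0.0370), and the 10 lymphocyte markers had a median of -0.90. The Ms4a1 call was lost in 12 of 30 alternatives, and the gene was not called within either age. The fibroblast gene Dpt, which encodes dermatopontin, differed by -1.04 (limma adjusted p = 0.00794), 1 of 10 fibroblast markers called, with a list median of -0.26. Of the 8 neutrophil markers Mpo (myeloperoxidase, a granule enzyme) was called lower in males, by -1.11 over both ages (limma adjusted p = 0.00715) and by -1.58 in AGED mice (limma adjusted p = 0.00823). In each of these comparisons 6 of the 8 had a positive difference, with a list median of 0.25 and 0.51. The summed adipocyte signal was 57.9 to 62.5 in MAT males, 35.2 to 68.0 in AGED males, 47.2 to 130 in MAT females and 44.8 to 73.3 in AGED females, so the sums, which the brightest gene carries, overlapped between the sexes. Of the defining adipocyte markers Lep, counted among the 5, was well above background on all 4 MAT female arrays. It was so on no male and no AGED female array, and was thus kept for the fit through the MAT females alone. The Lep call was lost with normexp background correction (-0.06) and with a floor on low signals (-0.53).

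The rest of the family comprised 17 MMP and TIMP genes, 16 of them with a probe and 8 of them fitted. None of the 8 was called with age in either sex. In the chromosome 9 run, Mmp1a, Mmp8 and Mmp20 were well above background on 0 of 16 arrays and Mmp1b on 1. Mmp7 (matrilysin, an MMP of epithelial cells) was well above background on 3 of 4 AGED males, at -1.47, -2.97 and -4.22, and the fourth read -6.26. It was kept for the fit through these arrays and 1 MAT female, so its differences are given without a test. It was below that limit on all 4 MAT males (-5.92, -6.07, -6.61 and -7.62) and all 4 AGED females (-6.96, -6.31, -5.83 and -5.80). For a group wholly below that limit the fold is a lower bound, taken against the dimmest signal still well above background on each array, or against the probe's own signal where that was higher. By group means, AGED males were at least 3.44-fold above AGED females and at least 3.97-fold above MAT males. The groups overlapped in both comparisons, since the fourth AGED male lay within the range of AGED females and of MAT males.

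Mmp17 and Mmp23 in males and Mmp11 in females, each fitted on all 16 arrays, had lower values in AGED than in MAT mice without overlap, beside 7.82% of all genes without overlap in males and 10.8% in females. Mmp17, a membrane-anchored MMP, read 2.06, 2.50, 2.15 and 2.05 in MAT males and 1.21, 1.65, 1.53 and 1.38 in AGED males, a change of -0.75 (SE 0.17, limma adjusted p = 0.0402) that is under 2-fold. In females its change was -0.02 (SE 0.17), and the difference between the sexes' changes was -0.72 (limma adjusted p = 0.297). For Mmp23 the male change was -0.60 (SE 0.19, limma adjusted p = 0.132). Mmp11 (stromelysin-3) ran from 1.53 to 1.90 in MAT females and from 0.79 to 1.48 in AGED females on its brighter probe, a change of -0.69 (SE 0.18, limma adjusted p = 0.163), and its second probe did not overlap either. In males its change was -0.08 (SE 0.18). These 3 genes were picked out after their values were seen. Timp4, the remaining inhibitor, had age changes of 0.16 (SE 0.19) in males and 0.26 (SE 0.19) in females.

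Genes that activate, bind or clear MMPs gave 1 call with age among 16 fitted. Lcn2 (lipocalin 2, a neutrophil and epithelial protein that forms a complex with MMP9) was higher in AGED males by 1.05 (limma adjusted p = 0.0295). In females its change of 1.04 was not called (limma adjusted p = 0.0857). This list too was chosen with earlier results known, so these age p-values are a description. With sex, Tfpi2, a serine protease inhibitor of the matrix that blocks plasmin, was well above background on 0 of 8 male and 5 of 8 female arrays. By group means, females at 12 months were at least 1.26-fold above males, and in AGED mice no bound above 1 could be given. Plat, the tissue plasminogen activator, was lower in AGED males than in AGED females by a change of -1.59 (limma adjusted p = 0.00770). The list's median age change was 0.06 in males and 0.27 in females.

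Among 20 fitted inducers of MMP transcription, such as cytokines, growth factors and AP-1 subunits, none was called in any contrast, and the median age change was -0.14 in males and 0.00 in females. Several AP-1 subunits, picked out after their values were seen, had large negative age changes in males that did not pass, -2.34 for Fosl1, -2.21 for Fosb, -1.71 for Fos, -1.17 for Jun and -1.09 for Junb (limma adjusted p = 0.149 to 0.397). In females the changes of these 5 genes ran from -0.88 for Fos to 1.17 for Fosl1. The groups overlapped for all 5 in both sexes. Of 19 ADAM and ADAMTS proteases, relatives of the MMPs that TIMP3 inhibits, none was called with age. The aggrecanase Adamts4 was lower in males over both ages (-1.85, limma adjusted p = 0.0250), as it was in AGED mice (-2.36, limma adjusted p = 0.0453), where Adamts9 was lower too (-1.46, limma adjusted p = 0.0175). The Adamts4 call in AGED mice was lost in 15 of 32 alternatives. Of 18 matrix substrates none was called with age, with a median of -0.28 in males and 0.10 in females, and 3 of 18 had a positive change in males against 10 of 18 in females. In AGED mice the proteoglycan Vcan, which encodes versican, was lower in males (-1.14, limma adjusted p = 0.0121), a change of -0.94, under 2-fold, without AGED male 1.

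**Figure D5:**
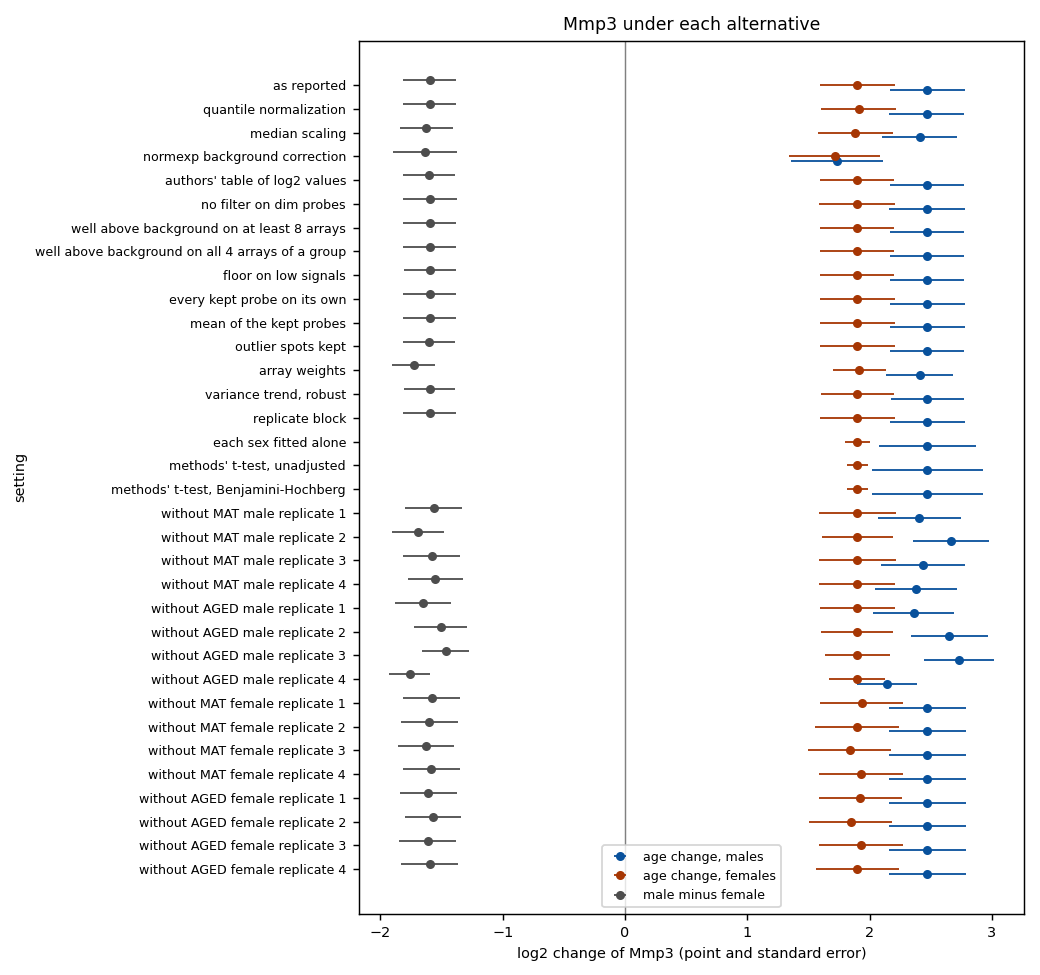
Log2 change of Mmp3 (x axis, point with standard error) for age in males, age in females and males minus females as reported and under each alternative (y axis). All signs stay the same, the male and female age changes meet under normexp background correction (1.73 and 1.71), and the male change is smallest among left-out arrays without AGED male 4 (2.14).

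The direction of Mmp3 held under every alternative run, in both sexes and between the sexes. Its male age change lay between 1.73 and 2.47 over 17 other settings and between 2.14 and 2.73 when 1 array was left out. The female age change lay between 1.71 and 1.92 over the settings and between 1.84 and 1.93 with 1 array left out.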

How the data were processed

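Total RNA of 16 bladders was labelled with Cy3 and hybridised to 1 array each. The authors extracted the scans with Agilent Feature Extraction (9.1 per the submitters' processing notes, 10.7.3.1 per the file headers), and deposited spot intensities, comprising a processed signal (background-subtracted and detrended within each array), raw medians and flags. A deposited value table held the same signals in log2 after 1 shift per array and centring of each probe. From the intensities, control spots and 399 flagged outlier probe values were removed, spots of a probe averaged, log2 taken and each array's 75th percentile subtracted. Probes well above background on 4 or more arrays were kept, and of several kept probes the one with the highest mean stood for its gene, giving 26781 genes from 36972 probes. Symbols came through accessions in RefSeq (GRCm38.p6, 26582 of 55681 probes), while the design was annotated on another build, so no coordinates are given for probes or transcripts, and promoter windows carry RefSeq's. limma 3.58.1 (R 4.3.3) fitted 4 group means over 16 arrays, with Benjamini-Hochberg adjustment. The fit was tested on simulated data. The number of arrays limits the precision. The p-values set a change against the spread between arrays of a group, each array holding 1 mouse. For sex this spread holds no variation between slides, since each slide held 1 sex. Members and gene lists were chosen with earlier results of these data known, so age p-values of list genes are given as a description. Named beside the members were genes of each list called with age or sex, at most the 4 of largest change per list and contrast, and the 3 genes of likest profile for Mmp3 and Timp1 (Mmp12 had no kept probe). The values of 1 list gene are not reported here. The alternatives comprised other scalings, normexp, the deposited table, filters on dim probes, a floor, probe choice, flagged spots kept, array weights, another variance prior, each sex alone, the methods' t-test, a replicate block and leaving out each array.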

Additional observations from a re-analysis of the deposited data

Results flagged for a closer look

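In groups of 4 arrays the highest or lowest value was compared with the rest by Dixon's ratio, its gap to the nearest value over the range of the group. Of 47 groups of member probe values 4 had an array standing apart, and of 8 groups of array measures 1 did, where chance gives about 1 in 20. MAT male 3 stood apart for Mmp13 (-7.84 against -6.60 to -6.35, ratio 0.829), a signal below the detection limit on all 4 arrays. MAT male 4 stood apart for Mmp14 (0.27 against -0.56 to -0.43, ratio 0.838). For Timp2, AGED male 2 stood apart on the brighter probe (7.02 against 7.61 to 7.64, ratio 0.965) and MAT male 2 on the other probe (2.64 against 3.05 to 3.11, ratio 0.864). The 75th percentile of AGED male 1 was 9.18, the other 3 of its group reading 9.92 to 10.01 (ratio 0.89). No Mmp3 group held such an array.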

How the results depend on the processing

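The cause of the shifts below was not tested. The number of genes called for age in males was 228, and 759 with normexp, 555 with no filter on dim probes, 11 with each sex fitted alone, 495 with the methods' t-test unadjusted and 0 after Benjamini-Hochberg. For age in females it was 51, and 18 with no filter, 191 with array weights, 3 with the replicate block, 99 with each sex alone, 393 with the t-test unadjusted and 1 after Benjamini-Hochberg. For the difference of the age changes it was 40, and 451 with normexp, 7 with no filter, 25 with the mean of the kept probes, 243 with array weights, 64 with the robust variance trend and 12 with the replicate block. For sex over both ages it was 476, and 918 with no filter. For sex in MAT mice it was 44, and 17 with normexp, 79 with the floor, 603 with array weights and 610 with the t-test unadjusted. For sex in AGED mice it was 834, and 1366 with no filter and 45 with the t-test after Benjamini-Hochberg. Leaving out 1 array gave 123 to 375 genes for age in males, 1 to 120 for age in females, 6 to 269 for the difference, 376 to 666, 17 to 116 and 610 to 1254 for sex over both ages, in MAT and in AGED mice. The largest counts for the difference (269), for age in females (120), for sex in MAT mice (116) and in AGED mice (1254) came without AGED male 1, and for age in males without AGED male 2.

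As a description, since age changes chose the members, Mmp3 was no longer called for age in males (2.47) with each sex alone or the t-test after Benjamini-Hochberg, and for age in females with normexp (1.71) or the replicate block (1.90). Its sex difference was not called in MAT mice with normexp (-1.65) and in AGED mice after the adjusted t-test (-1.31), and its difference of age changes moved to 0.021 with normexp. The female age change ran from 1.84 to 1.93 with 1 array left out and was not called without any of the MAT females or AGED females 1, 2 and 4. The sex difference in MAT mice ran from -2.08 to -1.79 with 1 array left out.

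Replicate numbers of the labels gave correlations of deviations between -0.15 and 0.07 in same-numbered arrays, so they were not taken as pairs, and the replicate block changed no other call of a member. A block for slide could not be fitted, since each slide held 1 sex. Normexp moved the median of all genes to 0.12 for age in males and to 0.18 for sex over both ages. Small sex differences over both ages changed sign, for Mmp9 to -0.013 with median scaling, -0.018 with the deposited table, -0.029 with flagged spots kept and -0.12 with array weights (-0.22 to 0.17 with 1 array left out), for Mmp10 to -0.16 with quantile normalization, -0.011 with median scaling and -0.035 with array weights (-0.30 to 0.34 with 1 array left out), and with normexp for Timp2 to -0.30, for Timp3 to 0.059 and, as fitted from dim signals, for Tfpi2 to 0.024 (0.11 in AGED mice). The Lcn2 call in AGED males was lost in 7 of 33 alternatives, that of S100a8 in 4 and that of S100a9 in 2. Signal over background limits Mmp7, Mmp10, Mmp12, Mmp13 and Tfpi2.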

Other observations

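The genes with a symbol whose centred signal over the 16 arrays was nearest to that of Mmp3, by root mean square difference, were Gm7609 (0.757 log2 units), Slfn4, a Schlafen family gene (0.789), and Csprs (0.814), beside an SD of 1.46 for Mmp3 itself. Their age changes were 1.64, 1.49 and 1.48 in males and 2.12, 2.66 and 2.18 in females, and their differences between males and females over both ages -1.16, -1.15 and -1.26. For Timp1, with an SD of 0.69, the nearest were Agbl3 (0.364), Bard1 (0.392) and Cks1brt (0.407), whose age changes in females were 0.84, 0.61 and 0.45. All these genes were chosen by their likeness over the same arrays, so like changes follow from the choice.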
